A study of Caenorhabditis elegans with 6 samples.

Results

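Expression of 7 regulators of cell fate was followed. These were the SOX genes sox-2, sox-3, egl-13 and sem-2, the cell-death specification genes ces-1 and ces-2 and the transcriptional co-activator gene eya-1. They were taken by symbol from the array's gene annotation, which assigned 11 probe sets to these 7 genes alone, of 22548 probe sets and 17118 genes measured. All 7 were measured. Where a gene had several probe sets, the one with the highest mean over the 6 arrays is called its main probe set. The genes were selected on their symbols when tyrosol-minus-control differences from these arrays were already known, and the main probe sets were chosen by their mean level, so the members' tyrosol differences are a description, without a test of their own.

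The nematode Caenorhabditis elegans was studied in the fer-15(b26) background. This mutation makes worms infertile at high temperature, and both groups carried it. Eggs were raised at 25 °C on plates with 250 µM tyrosol, a phenolic alcohol of olive oil, or on plates with the vehicle, and both kinds of plate held 0.1% ethanol. Whole worms were collected on day 4 of adulthood, and RNA of 3 control and 3 tyrosol samples was hybridised to 1 Affymetrix array each. The labels name them replicates without saying from how many cultures they came, so the errors given measure the spread between these arrays, which may be technical.

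SOX proteins bind DNA through an HMG box and set or hold cell fates. In C. elegans, SOX-2 acts in neuronal progenitors and in the conversion of the rectal cell Y into the motor neuron PDA, EGL-13, a SoxD protein, specifies uterine cells and gas-sensing neurons, and SEM-2, a SoxC protein, promotes the sex myoblast fate. CES-1, a Snail-type zinc-finger protein, can block the death of the sisters of the NSM pharyngeal neurons. CES-2, a bZIP protein, opposes it by repressing ces-1. EYA-1 works with homeodomain proteins of the sine oculis family in the pharynx and head. In these deaths the switch is transcription of egl-1, which starts the caspase pathway.

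Among the 7 genes, sox-2 and ces-2 read more than 2-fold higher in worms on tyrosol, eya-1 and sem-2 read about 1.5-fold higher, and egl-13, sox-3 and ces-1 differed by less than 0.1 on the log2 scale. The rank product, the test named in the study's design, was run over all probe sets and called a probe set at an estimated false discovery rate under 0.05. It called the main probe sets of 2 of the 7 genes, sox-2 and ces-2, both higher, beside 147 of all 17118 genes (0.859%) called higher. None of the 7 was called lower, against 4 genes in all (0.0234%). Over all 11 probe sets of these genes 3 were called, beside 208 of all 22548 (0.922%) called higher, and the third was the second probe set of eya-1. None of the 11 was called lower, against 6 of all probe sets (0.0266%), a number that was 34 without tyrosol replicate 2 and 12 without tyrosol replicate 1, again with none of the 7 main probe sets. Limma, a linear model with moderated variances, also called sox-2 and ces-2 alone of the 7, where it called 60 of all genes (0.351%), and the same pair with the replicate number as a block (0.73% of all genes). The median difference of the 7 main probe sets was 0.53, against -0.017 over all genes. Because these genes were listed with the contrast known, nothing is read from their share.

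sox-2, a SoxB gene, had log2 values of 4.93, 4.97 and 4.58 on the control arrays 1, 2 and 3, against 5.85, 6.23 and 5.95 on tyrosol arrays 1, 2 and 3. The groups did not overlap, and the lowest tyrosol array stood 0.88 above the highest control array. The means were 4.83 ± 0.21 and 6.01 ± 0.20 (log2, SD, n = 3 each), a difference of 1.18 (SE 0.14) or 2.27-fold. This probe set lay above the median of each of the 6 arrays.

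The second probe set of sox-2 showed a smaller difference on the same RNA. It read 3.39, 3.24 and 3.51 on the control arrays, against 3.88, 3.36 and 3.92 with tyrosol. Tyrosol replicates 1 and 3 stood above the controls, while tyrosol replicate 2, the array with the highest value on the main probe set, lay within the control range. The difference was 0.34 (SE 0.16), and the probe set was not called. Averaging both gave sox-2 a difference of 0.76, which was still called. The probe sequences were not used here, so whether the 2 probe sets read the same transcripts was not tested. Only the name endings _x_at and _f_at marked a probe set as shared with other sequences. The called probe sets of sox-2, ces-2 and eya-1 end in _s_at, and whether their probes also match other transcripts was not tested.

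sox-3, the other SoxB gene, read 1.66, 1.76 and 2.07 in control worms and 1.92, 1.84 and 1.79 in tyrosol worms. All 6 values lay below the median of their array, and the groups overlapped. The difference was 0.023 (SE 0.12) and changed sign between the runs that left out 1 array, with -0.059 when control replicate 1 was omitted and 0.14 when control replicate 3 was. At so low a signal a change of the RNA may go unseen.

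egl-13 was read by 3 probe sets, all below the median of every array. Its main probe set read 2.14, 2.34 and 2.34 in the controls and 2.36, 2.36 and 2.35 with tyrosol. The tyrosol values lay above the controls, by a gap of 0.013 that is small beside the control SD of 0.11. The difference was 0.083 (SE 0.094). Its other probe sets went opposite ways, at -0.14 (SE 0.13) with overlapping groups and at 0.15 (SE 0.089) with tyrosol values above all controls, and the last had a mean of only 0.88, above those of 0.745% of the probe sets.

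sem-2 had values between the called and the flat genes. Its single probe set read 3.57, 3.27 and 3.39 in the controls and 4.05, 3.98 and 3.80 with tyrosol. Every tyrosol array stood above every control array, with a gap of 0.23. The difference was 0.53 (SE 0.12), or 1.45-fold, and the fit over all probe sets did not call it. In all, 247 of the 17118 genes (1.44%) differed by at least 0.5 upward.

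**Figure D1:**
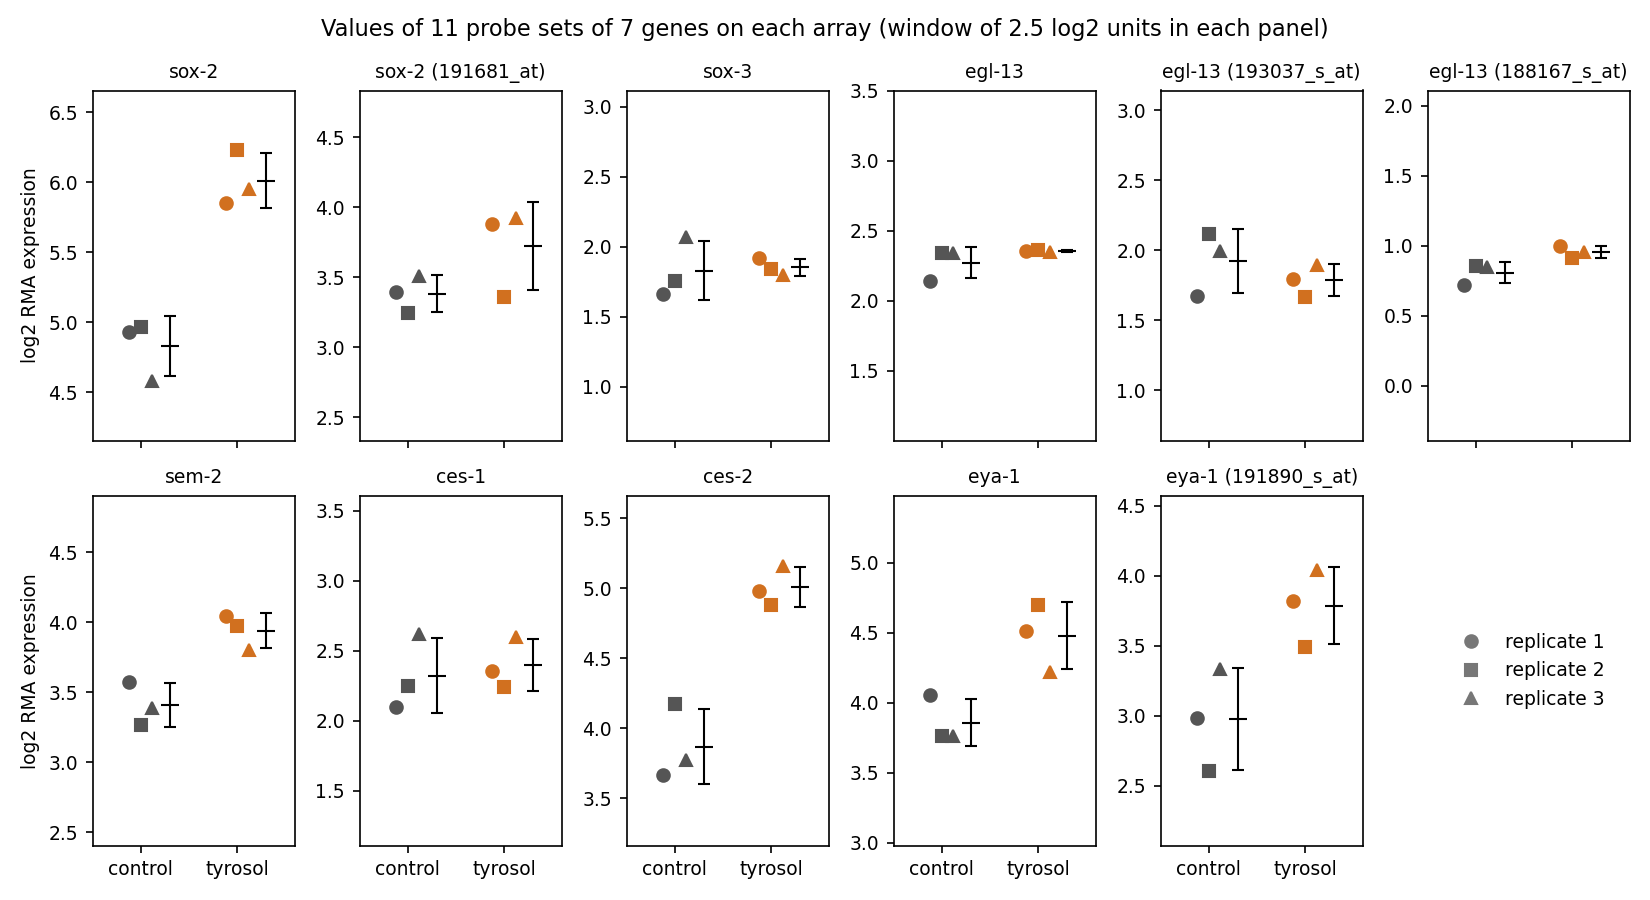
Log2 RMA expression (y axis, 2.5 units in each panel) of the 11 probe sets in the 3 control and 3 tyrosol arrays, with symbols for the replicate number and bars for the mean ± SD. The sox-2 and ces-2 main probe sets show groups far apart, while sox-3 and ces-1 overlap. Panels without a probe set name are main probe sets.

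ces-2 had values of 3.66, 4.17 and 3.77 on the control arrays 1, 2 and 3, against 4.98, 4.88 and 5.16 on the tyrosol arrays. The groups did not overlap, and the gap between them was 0.71. The means were 3.87 ± 0.27 and 5.01 ± 0.14 (log2, SD, n = 3 each), a difference of 1.14 (SE 0.15) or 2.20-fold. Within same-numbered arrays it was 1.32, 0.71 and 1.39, least in replicate 2, whose control was the highest of the 3.

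ces-1, which CES-2 represses in the NSM lineage, showed no such difference. It read 2.1, 2.25 and 2.62 in the controls and 2.35, 2.24 and 2.60 with tyrosol. The groups overlapped, and 4 of the 6 values lay below the median of their array. The difference was 0.076 (SE 0.15), with -0.036 when control replicate 1 was omitted and 0.22 when control replicate 3 was. The mean lay above those of only 46.9% of the probe sets. At such a level a fall of the RNA may go unseen, so whether ces-1 was repressed was not tested.

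eya-1 read higher with tyrosol on both of its probe sets. The main one read 4.06, 3.76 and 3.76 in the controls and 4.51, 4.70 and 4.22 with tyrosol, and the groups did not overlap. The difference was 0.62 (SE 0.14), or 1.54-fold, and it was not called. Without control replicate 1 it was called, as it was by the rank product on same-numbered pairs alone (0.976% of all genes) and with the mean of both probe sets (0.72).

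The second eya-1 probe set read 2.99, 2.60 and 3.34 in the controls and 3.82, 3.50 and 4.04 with tyrosol. Control and tyrosol values moved together by replicate number: replicate 3 was highest and replicate 2 lowest in both groups. The difference was 0.81 (SE 0.20), or 1.75-fold, and the rank product called it. Omitting control replicate 2 or one of tyrosol replicates 1 and 3 ended that call, and the difference then ran no lower than 0.63. Limma did not call it on unpaired arrays and did with the replicate number as a block, where it called 0.723% of all probe sets.

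On the main probe sets, 5 of the 7 genes had all tyrosol values above all control values, beside 1184 of 17118 genes (6.92%). They were sox-2, ces-2, eya-1, sem-2 and egl-13. None had all tyrosol values below all controls, as 6.78% of genes did. The calls of sox-2 and ces-2 were made without each array in turn, with differences of 1.06 to 1.26 and of 1.04 to 1.29. That included tyrosol replicate 2, the array whose values deviated most from its group mean over all probe sets (SD 0.21, against 0.11 to 0.15 on the others). In whole worms, a change in the number of cells that express a gene and a change in the RNA of each cell cannot be told apart.

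**Figure D2:**
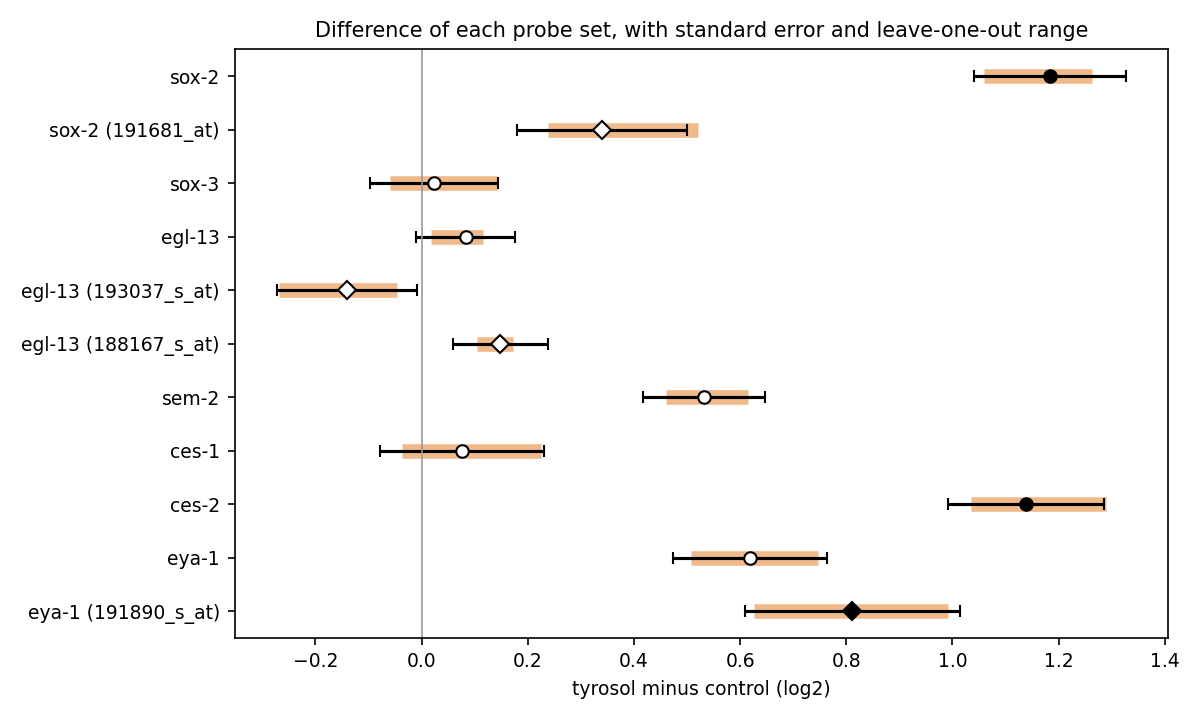
Tyrosol-minus-control difference (x axis, log2) of the 11 probe sets with its standard error (black bars) and its range when each of the 6 arrays was left out (orange bars). Circles are main probe sets, diamonds other probe sets, and filled symbols were called. The differences of sox-2 (1.18) and ces-2 (1.14) lie farthest from 0, and the orange bars of sox-3 and ces-1 cross 0.

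The genes' profiles over the 6 arrays were set against those of the 17111 other genes by the root mean square difference after each profile was centred on its own mean. The profile nearest to that of sox-2 was unc-39, a homeobox gene of the sine oculis family, at 0.074, followed by the gene W04A8.4 at 0.090. Only 3 genes lay within 0.1 of sox-2. Both differed by 1.18 (SE 0.12 and 0.13), a likeness to sox-2 that the choice by profile itself fixes. Nearest to ces-2 were msp-49 at 0.066 and msd-2 at 0.075, genes of major sperm protein domains, on probe sets whose probes are shared with other sequences. Nearest to eya-1 were zeel-1, the antidote of an embryo-killing sperm toxin, at 0.059 and B0228.6 at 0.082, and nearest to sem-2 were phlp-2 at 0.047 and C24H12.7 at 0.062. Flat profiles have many neighbours and so carry little information. Within 0.1 of egl-13 lay 2474 genes, with bbs-2 and glr-7 nearest, within 0.1 of sox-3 lay 540, with Y22D7AR.7 and K01D12.5 nearest, and within 0.1 of ces-1 lay 144, with nhr-149 and C26E6.1 nearest. Among the 7 genes themselves the closest pairs were sox-3 and egl-13 (0.10), sem-2 and eya-1 (0.11) and sox-3 and ces-1 (0.14), and sox-2 and ces-2 lay 0.23 apart.

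The genes that work beside these regulators were followed in 11 lists, which hold 188 measured genes other than the 7. The rank product called 8 of the 188 higher (4.26%) and 0 lower, where 0.859% of all genes were called higher. Limma called 5 of them, all higher, and 24 of the 188 had an unadjusted limma p under 0.05, as had 1234 of all genes (7.21%). Their median difference was 0.022, against -0.017 over all genes, and 28 had all tyrosol values above all controls (14.9%, against 6.92% of all genes). The 8 genes are hmg-6, zip-8, ceh-20, ham-1, ceh-32, unc-39, mls-2 and ceh-43. Because the lists, too, were chosen with earlier results of these data known, nothing is read from these shares.

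Among 10 other SOX and HMG-box genes, hmg-6 rose from 2.60 ± 0.077 to 3.77 ± 0.17 (log2, SD, n = 3 each), by 1.16 (SE 0.11, limma adjusted p = 0.025). The fifth SOX gene, sox-4, named here outside the rule for its family, differed by -0.11 (SE 0.11). The chromatin protein genes hmg-1.1 and hmg-4, named for the list's highest signals, differed by 0.19 (SE 0.11) and -0.11 (SE 0.12). The list's median was -0.040.

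Of 26 bZIP genes, the class to which ces-2 belongs, zip-8 rose by 0.98 (SE 0.11, limma adjusted p = 0.025). Its main probe set shares probes with other sequences. Without such probe sets zip-8 differed by 0.65 and was still called. zip-2, which acts in the response to infection, differed by 0.51 (SE 0.094, limma adjusted p = 0.086) with tyrosol values of 7.19 to 7.25 above controls of 6.65 to 6.84, and atf-7, another regulator of immunity, by 0.079 (SE 0.14). The list's median was 0.066, and 18 of its 26 genes were above 0. The Snail-type relatives of ces-1, scrt-1 and snai-1, differed by -0.021 (SE 0.15) and -0.033 (SE 0.10), both at levels below the array medians.

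Of the 21 genes that specify cell deaths, 2 were called higher, beside 0.859% of all genes. ham-1, which acts in the asymmetric divisions of neuroblasts, rose by 0.72 (SE 0.11, limma adjusted p = 0.041), and ceh-20, a PBX-type homeodomain cofactor, by 0.75 (SE 0.21, limma adjusted p = 0.33). ceh-20 read 5.37, 6.24 and 5.52 in tyrosol replicates 1, 2 and 3, so that replicate 2 was high, and without it the difference was 0.48. Omitting any tyrosol array ended both calls, and averaging the probe sets of ham-1 (0.47) ended that of ham-1 as well. The genes with the list's highest signals, pal-1 and dnj-11, differed by 0.20 (SE 0.11) and -0.19 (SE 0.11). The genes CES-1 is known to repress or control, named outside the rule for that role, were not called: pig-1 differed by -0.16 (SE 0.27) and cdc-25.2 by 0.15 (SE 0.11), and hlh-3 and hlh-2, which oppose CES-1 at egl-1, by 0.093 (SE 0.12) and -0.056 (SE 0.16).

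The rank product called 0 of 29 genes of death execution and corpse removal, limma called 0, and 2 had an unadjusted limma p under 0.05, a share near the 7.21% of all genes. The lowest p was that of egl-1, the BH3-only trigger of cell death. It read 2.93, 3.02 and 3.03 in the controls and 3.45, 3.43 and 3.54 with tyrosol, with no overlap. The difference was 0.48 (SE 0.089), and neither test called it (limma adjusted p = 0.088). The nuclease gene nuc-1 and the engulfment adaptor gene ced-2, whose probe sets had the highest signals, differed by -0.039 (SE 0.11) and 0.042 (SE 0.087). The list's median was -0.00085.

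**Figure D3:**
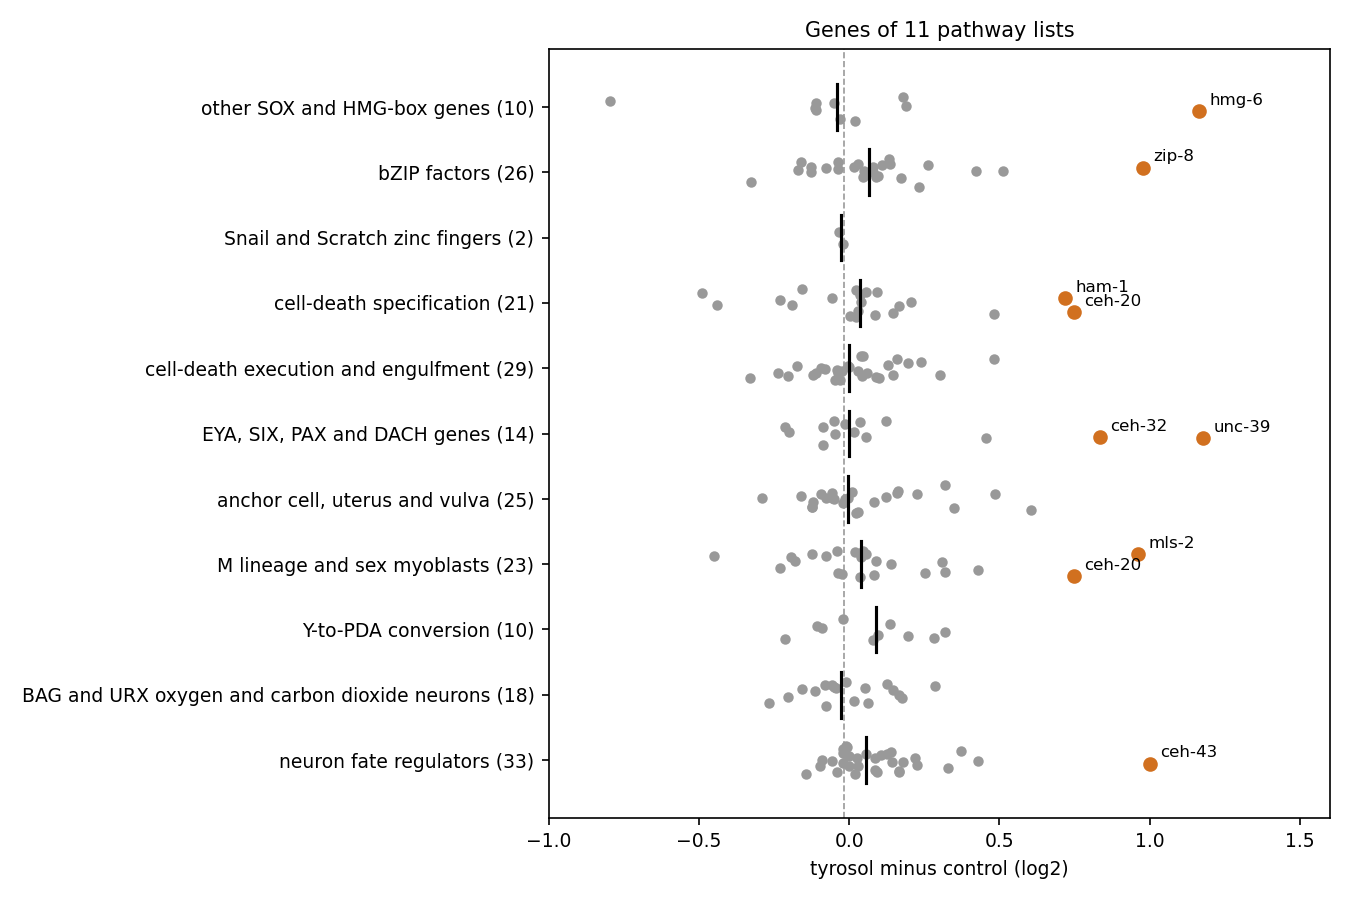
Tyrosol-minus-control difference (x axis, log2) of each measured gene in 11 lists, with the number of genes in parentheses. Orange points with names were called higher by the rank product, grey points were not called, black bars are list medians and the dashed line is the median of all genes (-0.017). The 8 called genes lie from 0.72 to 1.18, and each list's median lies near 0.

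Of 14 genes of the sine oculis, PAX and DACH families, which act with EYA, 2 were called higher, beside 0.859% of all genes. Both belong to the sine oculis homeobox family. unc-39 read 3.69, 3.86 and 3.59 in the controls and 4.76, 5.11 and 4.81 with tyrosol, a rise of 1.18 (SE 0.12, limma adjusted p = 0.025). ceh-32, which acts in the head, read 5.1, 4.70 and 4.96 and then 5.58, 6.0 and 5.69, a rise of 0.83 (SE 0.15, limma adjusted p = 0.074). The call of ceh-32 was lost without tyrosol replicate 2 or 3, and also with the mean of its probe sets (0.52). ceh-34, the sine oculis-family partner of EYA-1 in the death of the M4 sister cell and named outside the rule for that role, differed by 0.057 (SE 0.10). The other 12 genes of the list were not called, and its median was 0.00037.

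Of 23 genes of the M lineage, where SEM-2 acts, 2 were called higher, beside 0.859% of all genes. One was ceh-20, and the other was mls-2, an HMX-type homeobox gene that controls divisions of the lineage. mls-2 rose by 0.96 (SE 0.10, limma adjusted p = 0.025), with tyrosol values of 4.32 to 4.53 against controls of 3.38 to 3.55. With the mean of its probe sets it differed by 0.51 and was not called. sma-9, a zinc-finger gene of TGF-beta signalling, differed by 0.25 (SE 0.10). In this list 5 genes had all tyrosol values above all controls and 3 had all below, against 6.92% and 6.78% of all genes. The 3 were hnd-1 at -0.45 (SE 0.11), hlh-8 at -0.19 (SE 0.091) and hlh-1 at -0.18 (SE 0.099), none of them called. An unadjusted limma p under 0.05 was found for 6 of the 23 (7.21% of all genes). The median was 0.038, and 12 of the 23 genes had a mean below the median of all probe sets.

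The lists closest to EGL-13 and to the conversion of Y held no called gene. Of 25 genes of the anchor cell, uterus and vulva, the rank product and limma called 0, and 5 had an unadjusted limma p under 0.05 (7.21% of all genes had one). The nuclear receptor gene nhr-67 had the lowest p, at 0.49 (SE 0.14, limma adjusted p = 0.37), and lag-1 and egl-26, with the highest signals, differed by 0.16 (SE 0.088) and -0.12 (SE 0.11). Of these 25 genes, 6 had all tyrosol values above all controls and 0 had all below, against 6.92% and 6.78% of all genes. Of 18 genes of the BAG and URX gas-sensing neurons, the rank product and limma called 0 and 1 had an unadjusted p under 0.05, the guanylate cyclase gene gcy-34 at -0.27 (SE 0.10). The peptide genes flp-10 and flp-8 differed by -0.20 (SE 0.12) and 0.29 (SE 0.17). In this list 13 of 18 genes had a mean below the median of all probe sets, so little can be read from it. Of 10 genes of the Y-to-PDA conversion, the rank product and limma called 0 and 1 had an unadjusted p under 0.05, lin-12, the Notch receptor gene, at 0.32 (SE 0.14). The chromatin genes wdr-5.1 and egl-27 differed by -0.22 (SE 0.18) and 0.097 (SE 0.098). Of these 10 genes, 5 had a mean below the median of all probe sets.

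Of 33 regulators of neuron fate, ceh-43, a Distal-less homeobox gene, rose by 1.0 (SE 0.16). Its limma adjusted p was 0.055, and 0.044 with the replicate number as a block. It read 5.17, 5.71 and 5.26 in the controls and 6.29, 6.27 and 6.59 with tyrosol, and the rank product call was lost without tyrosol replicate 3. The zinc-finger gene die-1 differed by 0.22 (SE 0.089). The list's median was 0.056, and 24 of the 33 genes had a mean below the median of all probe sets.

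Markers of other cell types were summed on each array as linear signals, a sum in which genes of high signal weigh most. Sperm genes summed to 229 to 502 in control worms and 854 to 968 in tyrosol worms, and 21 of the 24 measured sit on probe sets shared with other sequences. The rank product called 21 of the 24 higher, limma 8 and limma blocked on replicate number 13, and their median difference was 1.49. Over all genes the rank product called 0.859% higher, and limma without and with the block called 0.351% and 0.73%. Of the called sperm genes only ssp-16, at 1.01 (SE 0.14), sits on a probe set not marked as shared, so the calls are not independent. The genes gsp-4, spe-9 and spe-11 were not called, at 0.39 (SE 0.17), 0.011 (SE 0.16) and 0.25 (SE 0.12). The precuticle list, of genes made in embryos and at moults, summed to 956 to 1130 and to 1181 to 1249. It also holds cuticle collagen genes such as dpy-14, dpy-7 and rol-6, the last 2 also in the epidermis list. The rank product called 5 of 17 higher, noah-1, noah-2, lpr-3, mlt-11 and dpy-14, limma called 2 and limma with the block 5. Epidermis markers summed to 253 to 271 and 282 to 302, with 1 of 14 called higher by the rank product, 0 by limma (3 at an unadjusted p under 0.05) and 1 by limma with the block. That gene, wrt-10, rose by 0.74 (SE 0.13, limma adjusted p = 0.073, and 0.033 with the block). It carried 16.4 of the 32.2 linear units of the epidermis difference. Without wrt-10, left out after its values were seen, the sums were 230.8 to 242.7 and 243.8 to 259.9, so they lay only narrowly apart.

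The sums of body wall muscle markers (1604 to 1770 and 1862 to 1990) and of neuron markers (554 to 587 and 606 to 633) also lay apart, but in each a single gene carried most of the difference. For muscle this was act-4, with 160 of 245 linear units, and for neurons snb-1, with 34.5 of 48.3, and without these genes, left out after their values were seen, the sums of both lists overlapped between groups. None of the 13 muscle and 22 neuron markers was called by the rank product or limma, and 3 and 2 had an unadjusted limma p under 0.05. The median differences were 0.13 and 0.033, with 3 of 13 and 9 of 22 genes below 0. The sums overlapped between groups for zygotic embryo markers (641 to 720 and 678 to 723), germ line (14946 to 16161 and 13331 to 16172), pharynx (59.1 to 64.1 and 62.0 to 73.0) and intestine (9498 to 9774 and 9286 to 9941). The rank product and limma called 0 genes of these 4 lists, and 3 of 22, 1 of 20, 2 of 9 and 3 of 11 had an unadjusted limma p under 0.05, where 7.21% of all genes did. Of the 11 intestine markers, 3 had all tyrosol values below all controls (6.78% of all genes) and 0 had all above. The 3 were elt-2 at -0.29 (SE 0.088), elt-7 at -0.34 (SE 0.12) and ifb-2 at -0.15 (SE 0.093), and 5 of the 11 differed upward. Without vit-5 the intestine sums still overlapped (3944 to 4058 and 3952 to 4099). All germ line and intestine markers measured had a mean above the median of all probe sets, and no marker had a value of 0, since RMA gives none. The part of these cell types in the values of the 7 regulators was not tested.

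**Figure D4:**
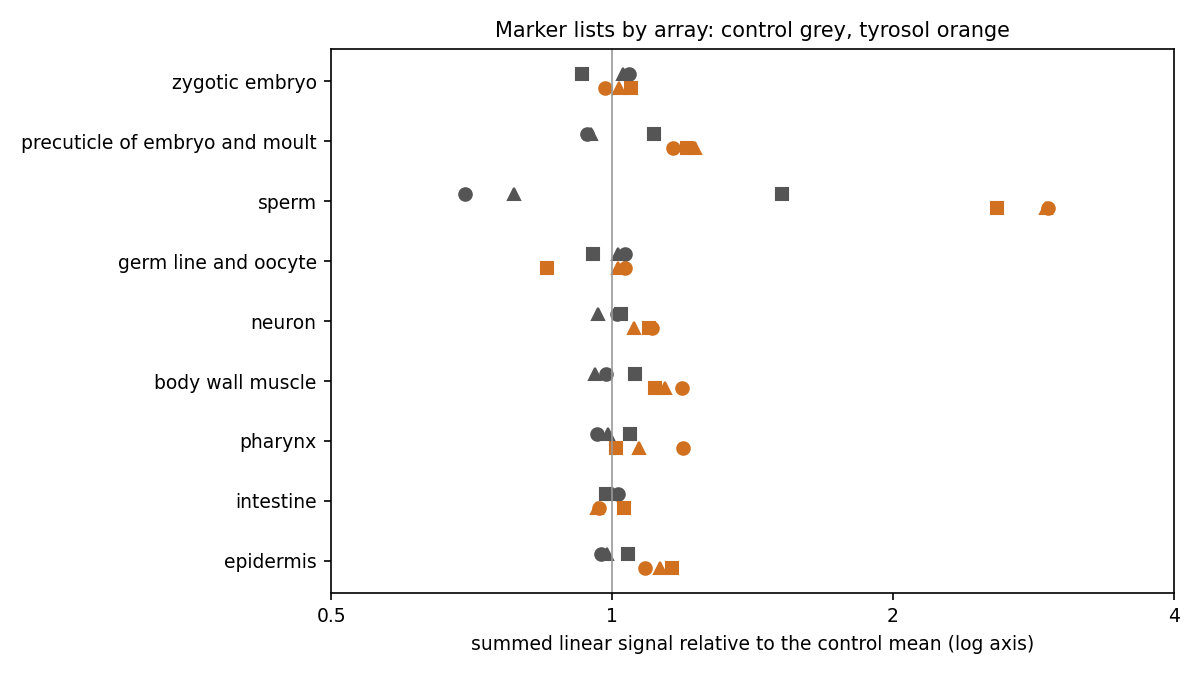
Summed linear signal of 9 marker lists on each array relative to the control mean of the list (x axis, log scale), with control arrays in grey and tyrosol arrays in orange, and circles, squares and triangles for replicates 1, 2 and 3. Sperm sums lie farthest apart, and precuticle, muscle, neuron and epidermis sums lie apart by less. The muscle and neuron sums overlap once act-4 and snb-1 are left out, and the other 4 lists overlap as drawn.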

How the data were processed

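Per the labels, the deposited table holds the authors' RMA values on a log2 scale (background correction, quantile normalisation and a summary of each probe set); the design text also names RMA, without a version. The log base was inferred from their range (0.47 to 12.53). Of 22625 probe sets, 77 manufacturer controls were left out; 20766 name 1 gene, 887 several and 895 none. Names were updated through RefSeq genes (WBcel235, for names and gene order). The array annotation states no genome build, and no coordinates are given.

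The rank product was programmed in Python 3.11.15 with numpy 2.4.6 (9 differences, 100 permutations within arrays, threshold 0.05). Limma 3.58.1 in R 4.3.3 gave standard errors and Benjamini-Hochberg adjusted p-values over all 22548 probe sets. Both were run on simulated data, but only the rank product under an equal spread was held to a set limit. The outcome with each probe set's own spread is not given here. The rank product assumes a like spread in all probe sets. The number of arrays limits precision (median SE 0.12).

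Deviations from group means correlated within same-numbered pairs (0.11, 0.37 and 0.26). The labels state no pairing, and other pairings were not compared, so whether the numbers pair the samples was not tested. The standard errors given are unpaired. The replicate number served as a block in alternative runs, and blocked values stand where they change a call. Members, lists and tests were chosen with earlier results of these data known. Named list genes are those called, the 2 of highest mean signal (no measure of abundance between genes) and the one of lowest limma p, and for each member the 2 nearest profiles; exceptions are marked. Of the list names K02D7.2 and C55C2.1 (Snail) and atf-5 and cebp-2 (bZIP) were not measured.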

Additional observations from a re-analysis of the deposited data

How the results depend on the processing

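The rank product called 214 probe sets, and 100 to 219 without single arrays, with the total moving beyond 1.5-fold without tyrosol replicate 1 (118), 2 (140) or 3 (100). Without tyrosol replicate 2 the higher calls went from 208 to 106 and the lower calls from 6 to 34, and without tyrosol replicate 1 to 106 and 12. Without both replicate 2 arrays it called 108, and limma called 76. With the replicate number as a block limma called 163 and the rank product 232. Of the 7 main probe sets 2 were called, and 2 to 3 without single arrays. The replicate block in limma changed no member's call on a main probe set, while same-numbered rank products called 3. Of the 188 list genes 8 were called, 4 to 9 without single arrays, with 5 without tyrosol replicate 2 and 4 without tyrosol replicate 3, and 5 without both replicate 2 arrays and 5 with limma. The cause of these moves was not tested, except that fewer arrays enter where arrays are left out. No called difference changed sign in any alternative run. Centring arrays on their medians or normalising quantiles again changed no member's call. Restricted to probe sets above the median level, sox-3, egl-13 and ces-1 dropped out and 4 of the 7 genes stayed. Averaging both probe sets moved the difference of sox-2 from 1.18 to 0.76. With 3 arrays a group, differences near the median SE of 0.12 are not resolved.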

Other observations

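The genes that lie next to the 7 regulators in the order of protein-coding genes were chosen after their values could be seen and are given as values. Of 14 neighbours 12 were measured, and 1 was called higher, where 0.859% of all genes were. Nothing is read from this share. The called neighbour is hch-1, next to sox-3, which encodes an astacin metalloprotease needed for hatching. It rose from 4.00 to 5.11, by 1.11 (SE 0.19), while sox-3 differed by 0.023. The neighbours of sox-2, acl-12 and coh-1, differed by 0.14 (SE 0.14) and 0.40 (SE 0.11), the latter with tyrosol values above all controls and no call. Next to ces-2, the F-box gene fbxb-70 differed by 0.59 (SE 0.19), also without overlap and without a call. The measured neighbours of sem-2, eya-1, egl-13 and ces-1 differed by -0.18 to 0.22.

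Control replicates 2 and 3 hold exactly the same value for the main probe sets of egl-13 (2.34) and eya-1 (3.76). Equal values on 2 or more control arrays occur in 514 of the 22548 probe sets (2.28%), and in 542 (2.4%) among the tyrosol arrays.

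The gene hmg-20, singled out after its values were seen, had the largest difference downward among the list genes, at -0.80 (SE 0.39), with a tyrosol SD of 0.95 against a control SD of 0.072. It was not called (limma adjusted p = 0.75).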
